A study of Mus musculus with 33 samples.

Results

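The 10 genes described here encode the lysyl oxidase family (Lox and Loxl1 to Loxl4) and the core of the elastic fibre (Fbn1, Fbn2, Eln, Fbln5 and Efemp2). They were taken by name from the 37583 Ensembl gene IDs counted in each of 33 mouse RNA-seq libraries. All 10 were found and all 10 passed the filter on low counts. Cells on their way to induced pluripotency were sorted as SSEA1+ or SSEA1- at days 3, 6, 9 and 12 and at the iPS stage, and mouse embryonic fibroblasts (MEF) gave the starting point, with 3 libraries in each of 11 groups. SSEA1 is a carbohydrate surface antigen that mouse pluripotent cells carry and fibroblasts lack. The strain of all groups is given as 129SV/Jae/C57BL6J. Per the labels' protocols the MEF grew in a fibroblast medium, whereas the sorted stages had ES medium with dox and AA. The factors that drive reprogramming and their allele are not given in the sources used here. The change of medium and the days of reprogramming cannot be told apart in any comparison with MEF. The labels do not tell whether replicates were separate cultures, so the p-values below reflect the spread of these samples alone, which may be technical. These are bulk libraries, in which fewer cells of a type and less RNA per cell cannot be told apart.

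Elastic fibres consist of an elastin core laid on a scaffold of fibrillin microfibrils. Tropoelastin, the product of Eln, is deposited with the help of the fibulins encoded by Fbln5 and Efemp2, and is then made insoluble by lysyl oxidases, secreted copper enzymes that oxidise lysine side chains so that neighbouring chains cross-link. Lox and several of its relatives cross-link collagens by the same chemistry. Embryonic fibroblasts are a standard source of all these products, while pluripotent stem cells make little interstitial matrix.

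Reads counted in genes ranged over 8.93 to 41.69 M per library, with a median of 23.15 M. Levels are counts scaled to library size by TMM (CPM), on which 3 reads correspond to 0.0757 to 0.417 CPM depending on the library. The quasi-likelihood test of edgeR was run over 17326 genes. The words rose and fell are kept for genes with a change of 2-fold or more at a Benjamini-Hochberg adjusted p below 0.05. Changes are log2 fold changes ± standard error. The fibroblast markers behaved as the labels say for MEF, with a summed level of 12 genes of 76300 to 84000 CPM in MEF, none of them at 0. The same sum was 43.5 to 1740 CPM in SSEA1+ cells and 2780 to 14400 CPM in SSEA1- cells over all stages, and the sum of 8 pluripotency markers was 4120 to 6100 CPM in iPS SSEA1+ cells and 1.67 to 3.43 CPM in MEF. A few libraries stood apart. In iPS SSEA1- cells the pluripotency sum was 127, 394 and 2400 CPM, so replicate 3 was closest to the SSEA1+ side by that sum. Its fibroblast sum was also the highest of the group, at 14400 CPM, as was its sum of 8 smooth muscle or myofibroblast markers, at 5830 CPM. Its sum of 8 epithelial markers was the lowest, at 337 CPM against 851 and 1150 CPM. The sum of 7 macrophage markers was higher in replicate 2 than in replicates 1 and 3 in MEF and in each SSEA1- group, at 129 CPM against 3.95 and 20.2 CPM in MEF and at 507 CPM against 24.9 and 19.2 CPM in iPS SSEA1- cells.

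All comparisons with MEF share the same 3 MEF libraries. Against MEF, 8 of the 10 genes had fallen in SSEA1+ cells at day 3 (16.7% of all genes tested fell), 8 at day 6 (16.6%), 8 at day 9 (18%), 10 at day 12 (20.2%) and 10 at the iPS stage (22.5%). The genes that had not fallen by day 9 were Loxl4 and Fbn2. In SSEA1- cells 6 had fallen at day 3 (14.9%), 6 at day 6 (12.4%), 6 at day 9 (11.6%), 5 at day 12 (11.1%) and 6 at the iPS stage (7.7%). The median log2 change of the 10 genes was -2.81 at day 3 and -6.73 at the iPS stage in SSEA1+ cells, where the median over all genes tested was 0.09 and 0.22. In SSEA1- cells it was -2.62 at day 3 and -1.98 at the iPS stage, against 0.07 and 0.19 over all genes. Of the 100 values that the 10 genes gave against MEF, 99 were below 0, and the exception was Loxl3 in iPS SSEA1- cells at 0.42 ± 0.44 (adjusted p = 0.47). No rise over MEF was called by edgeR or by DESeq2, and none had an unadjusted p under 0.05. The count over all genes differed between edgeR and DESeq2, which differ in both test and scaling. At day 3 edgeR had 2702 genes higher and 2890 lower in SSEA1+ cells than in MEF, whereas DESeq2 with its own size factors had 2082 higher and 3403 lower. For day 3 SSEA1- cells the counts were 2651 higher and 2574 lower with edgeR, and 2074 higher and 3086 lower with DESeq2. With DESeq2 the median log2 change of all genes was shifted by -0.146 and -0.125 in these comparisons, where it called 8 and 7 of the 10 genes lower. With edgeR kept and only the scaling changed, to RLE, the shifts were -0.117 and -0.092.

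**Figure D1:**
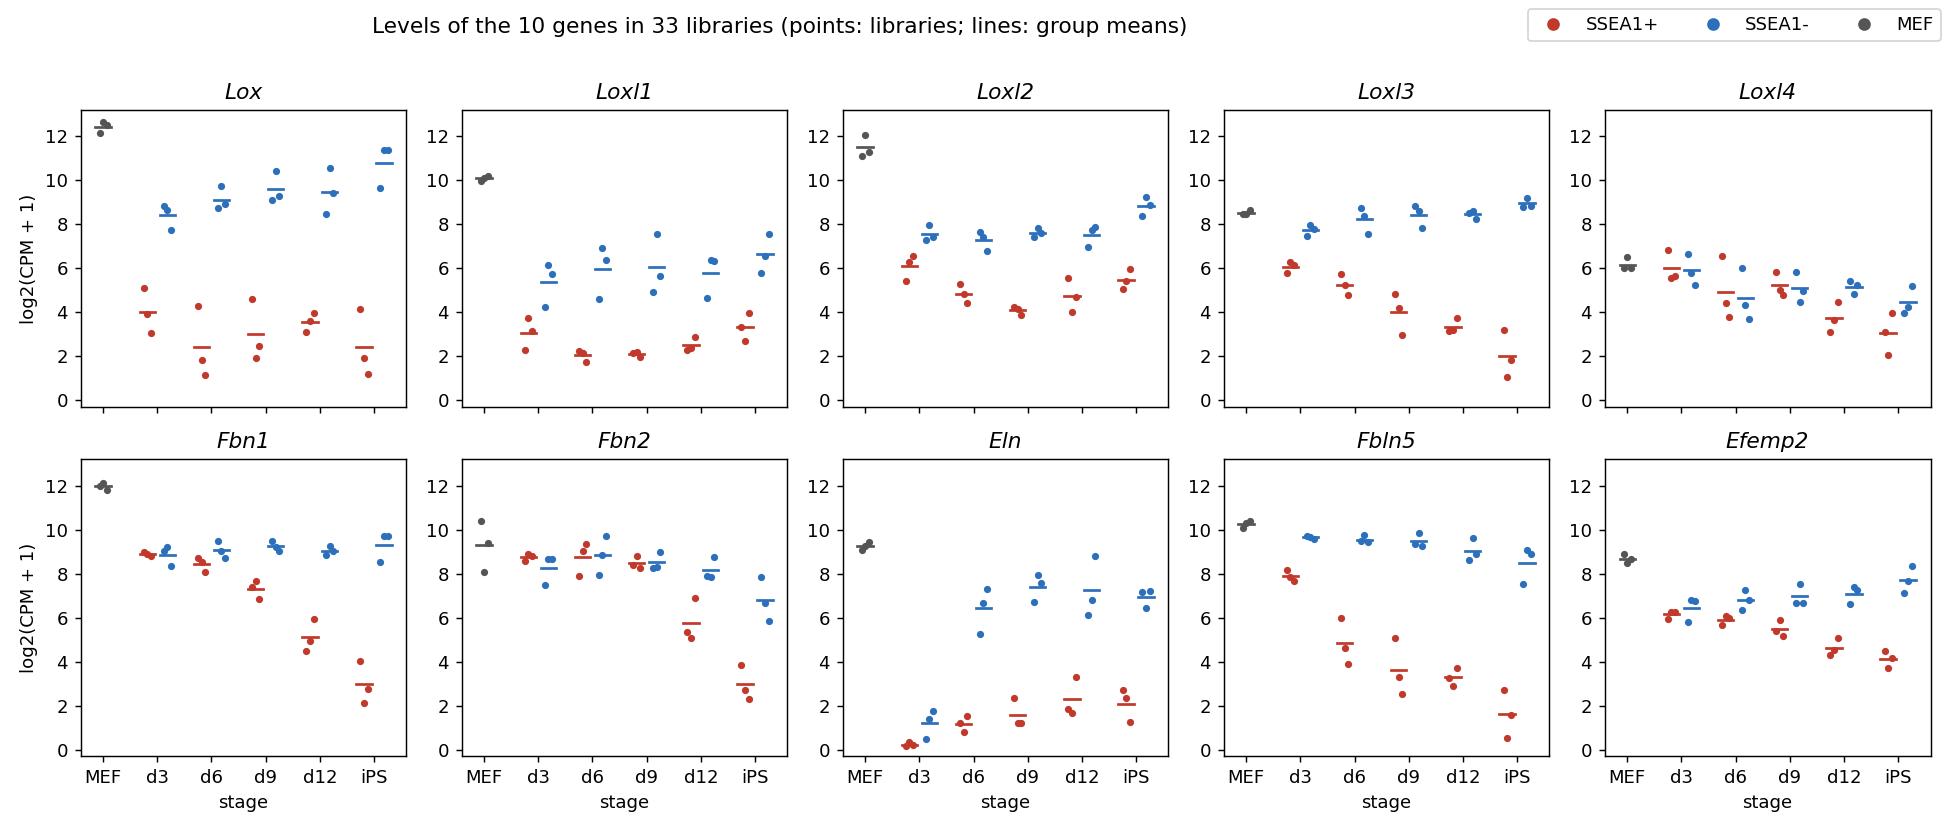
Level of each of the 10 genes as log2(CPM + 1) in every library, with stage on the horizontal axis, SSEA1+ cells in red left of SSEA1- cells in blue, and MEF in grey at the start of the axis; short lines are group means. Loxl4 and Fbn2 overlap between the fractions at days 3, 6 and 9, whereas Lox is lower in every SSEA1+ library than in any SSEA1- library.

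Lox, the founding member of the family, which cross-links both collagen and elastin, differed most between the fractions at day 3 among the 10 genes. Its levels were 33.9, 14.1 and 7.32 CPM in day 3 SSEA1+ cells, 457, 395 and 213 CPM in day 3 SSEA1- cells and 4510, 6370 and 5850 CPM in MEF. The 3 groups did not overlap. Lox fell against MEF in both, with -8.24 ± 1.15 in SSEA1+ cells (301-fold, adjusted p = 2.7e-06) and -3.97 ± 0.95 in SSEA1- cells (15.7-fold, adjusted p = 0.0013). In SSEA1+ cells it stayed between 1.21 and 33.9 CPM in all 15 libraries from day 3 to the iPS stage, with changes against MEF of -8.24 to -9.66.

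In SSEA1- cells the mean Lox level was 355 ± 130 CPM at day 3, 855 ± 610 CPM at day 12 and 2030 ± 1100 CPM at the iPS stage (SD, n = 3 each), and neither of the steps tested was called. It measured 422, 861 and 478 CPM at day 6, 555, 1390 and 623 CPM at day 9, and 357, 1530 and 678 CPM at day 12. At the iPS stage it was at 808, 2640 and 2650 CPM, below each MEF library but not past the threshold (-1.45 ± 0.86, adjusted p = 0.18). The change in SSEA1- cells was 1.27 ± 0.85 between day 12 and day 3 (adjusted p = 0.25) and 1.25 ± 0.85 between the iPS stage and day 12 (adjusted p = 0.41). Replicate 2 held the highest Lox value of its SSEA1- group at days 6, 9 and 12, and it also held the highest macrophage sum there, at 162, 216 and 314 CPM, and the highest fibroblast sum, at 9500, 13900 and 10100 CPM. At day 3 replicate 2 also had the highest of both sums, at 37 and 6380 CPM, but Lox was highest in replicate 1. At the iPS stage its macrophage sum was 507 CPM against 19.2 CPM in replicate 3, while Lox was at 2640 and 2650 CPM in these 2 libraries. The part of either cell type in that spread was not tested. The call against MEF, at -2.71 ± 0.89 at days 9 and 12, ended without SSEA1- replicate 1 or 3 of that day, with values of -2.35 to -2.56 and adjusted p of 0.062 to 0.073.

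Loxl1, an enzyme that acts mainly on elastin and is needed for its renewal in adult tissue, followed the same order. It was at 3.96, 12.2 and 7.83 CPM in day 3 SSEA1+ cells, 18, 69.5 and 53.2 CPM in day 3 SSEA1- cells and 1010, 1100 and 1180 CPM in MEF. It fell against MEF in both fractions at every stage, with -6.82 ± 0.79 to -8.43 ± 0.85 in SSEA1+ cells and -3.29 ± 0.67 to -4.54 ± 0.71 in SSEA1- cells. In iPS SSEA1- cells it measured 54.8, 92.2 and 190 CPM, still 9.75-fold below MEF. Replicate 3, the library with the highest pluripotency and fibroblast sums of that group, had the highest of these values.

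Loxl2, which cross-links collagen IV of basement membranes among other substrates, fell in both fractions at every stage. Its levels were 42.2, 77.4 and 94 CPM in day 3 SSEA1+ cells, 155, 246 and 173 CPM in day 3 SSEA1- cells and 2230, 4300 and 2500 CPM in MEF. The changes against MEF were -5.40 ± 0.45 in SSEA1+ cells and -3.98 ± 0.42 in SSEA1- cells (adjusted p = 1.4e-09 and 9.4e-08). Its lowest level was at day 9 in SSEA1+ cells, at 17.9, 16.8 and 13.6 CPM. At the iPS stage it was at 32.5, 41.4 and 62.3 CPM in SSEA1+ cells and at 331, 602 and 467 CPM in SSEA1- cells. In SSEA1- cells that was a rise over day 12, when it had 123, 216 and 234 CPM (1.29 ± 0.38, adjusted p = 0.03, the only member among 4.72% of all genes that rose). This call ended when any of 5 of the 6 libraries was left out, with adjusted p of 0.058 to 0.15, and was kept only without iPS SSEA1- replicate 1.

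Loxl3, a relative that acts on collagens and is needed for palate and spine formation in mice, fell against MEF in SSEA1+ cells, while no SSEA1- stage passed the threshold. It measured 53.7, 76.1 and 71 CPM in day 3 SSEA1+ cells, 175, 247 and 220 CPM in day 3 SSEA1- cells and 358, 349 and 404 CPM in MEF. In SSEA1+ cells its mean was lower at each later stage, with 52.7, 37.1 and 26.5 CPM at day 6, 27.9, 17.6 and 6.94 CPM at day 9, 7.75, 8.04 and 12.4 CPM at day 12 and 8.07, 1.11 and 2.57 CPM at the iPS stage. Its change against MEF was -2.47 ± 0.47 at day 3 and -6.56 ± 0.57 (94.1-fold lower, adjusted p = 5.1e-10) at the iPS stage. In SSEA1- cells the changes were -0.79 ± 0.45 at day 3 (adjusted p = 0.16) and 0.42 ± 0.44 at the iPS stage (adjusted p = 0.47). The iPS SSEA1- libraries, at 441, 593 and 456 CPM, all lay above the 3 MEF libraries. Loxl3 shares 535 exon bases, 11.6% of its exon length, with Htra2 on the opposite strand in GENCODE M21. Htra2 averaged 24.0 ± 5.0 CPM in day 12 and 17.1 ± 6.1 CPM in iPS SSEA1+ cells, and without strand the reads of the shared bases cannot be told apart. The deposited counts keep ambiguous reads in a row of their own (2.41 to 3.15% per library). Reads of shared bases may thus be missing from both genes. The names of the deposited tables speak of counting without strand, although the library kit marks it, which bears on each overlap given here. Genes on the opposite strand outside the counted IDs also overlap exons of Lox, Loxl2, Fbn2 and Eln.

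Loxl4, whose substrates are less well defined, was the only lysyl oxidase not called against MEF in either fraction at days 3, 6 and 9. Its levels were 113, 46 and 49.2 CPM in day 3 SSEA1+ cells, 100, 54.3 and 37.2 CPM in day 3 SSEA1- cells and 63.3, 89.8 and 63.3 CPM in MEF, so all 3 groups overlapped. The change against MEF was -0.06 ± 0.65 in SSEA1+ cells and -0.18 ± 0.65 in SSEA1- cells (adjusted p = 0.97 and 0.86). At day 6 SSEA1+ cells had 93.1, 20.2 and 13 CPM and SSEA1- cells had 63.2, 19.1 and 11.8 CPM. Replicate 1 was the highest at days 3, 6 and 9 in both fractions, and without it the day 6 changes against MEF passed the threshold, at -2.12 in SSEA1+ cells and -2.22 in SSEA1- cells (adjusted p = 0.016 and 0.018). Loxl4 had fallen in SSEA1+ cells at day 12, with 7.5, 11.7 and 21 CPM (-2.43 ± 0.69, adjusted p = 0.0036), and at the iPS stage, with 7.6, 3.18 and 14.6 CPM (-3.09 ± 0.71, adjusted p = 5e-04). In SSEA1- cells it was not called at any stage and came nearest at the iPS stage, with 14.6, 18.1 and 36 CPM (-1.65 ± 0.67, adjusted p = 0.051), where DESeq2 did call it (-1.71, adjusted p = 0.022).

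The promoter sequences of Loxl4 and Fbn1 are printed here because these genes parted early, Loxl4 overlapping its MEF level at day 3 while Fbn1 had fallen in both fractions. Each runs from 250 bases before to 50 bases after the annotated start in RefSeq (GRCm38.p6), 5′ to 3′ on the gene's own strand, with CpG dinucleotides in capitals. The Loxl4 stretch, at chr19:42612757-42613056 on the minus strand, has 32 CpG and 75% G or C, and the Fbn1 stretch, at chr2:125506389-125506688 on the minus strand, has 14 CpG and 60.3% G or C. The medians over all promoters of the table were 7 CpG and 52.7%.
Loxl4: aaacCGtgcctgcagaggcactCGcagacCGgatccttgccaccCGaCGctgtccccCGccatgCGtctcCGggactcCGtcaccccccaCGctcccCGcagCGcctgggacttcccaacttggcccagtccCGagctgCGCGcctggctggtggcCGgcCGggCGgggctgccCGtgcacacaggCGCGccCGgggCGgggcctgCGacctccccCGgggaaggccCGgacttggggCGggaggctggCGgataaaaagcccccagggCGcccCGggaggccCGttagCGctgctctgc
Fbn1: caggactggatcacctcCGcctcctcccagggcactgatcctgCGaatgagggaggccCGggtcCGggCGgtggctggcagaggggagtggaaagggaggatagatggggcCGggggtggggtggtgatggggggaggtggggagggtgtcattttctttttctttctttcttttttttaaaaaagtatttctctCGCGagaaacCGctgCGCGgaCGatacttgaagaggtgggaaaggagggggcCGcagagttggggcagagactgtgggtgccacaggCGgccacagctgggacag
Promoter entries were used for 4 of the 10 genes (Loxl4, Fbn1, Fbln5 and Efemp2), with 7 entries in all. None of the 7 held the letters TGANTCA (an AP-1 motif, in 7.81% of 32841 promoters), CATTCC (TEAD, 14.7%), CACCTG (the E-box of Snai and Zeb factors, 20.2%), GTCTAGAC (a SMAD palindrome, 0.213%) or TATAAA (found in 13.6%) on either strand. This says only that those letters are not in these windows. The promoters of Lox, Loxl1, Loxl2, Loxl3, Fbn2 and Eln were not examined.

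Fbn1, the main fibrillin of microfibrils after birth, had fallen to overlapping levels in both fractions by day 3 and differed between them from day 9 on. It was at 510, 478 and 438 CPM in day 3 SSEA1+ cells, 527, 598 and 321 CPM in day 3 SSEA1- cells and 4030, 4470 and 3550 CPM in MEF. Both lay below every MEF library, with -3.08 ± 0.43 in SSEA1+ cells and -3.06 ± 0.43 in SSEA1- cells (8.45-fold and 8.34-fold). From there SSEA1+ cells had 413, 363 and 269 CPM at day 6, 166, 205 and 115 CPM at day 9, 21.1, 29.7 and 59.7 CPM at day 12 and 15.4, 3.34 and 5.72 CPM at the iPS stage. No library of a later SSEA1+ stage overlapped with those of the stage before it. SSEA1- cells stayed between 321 and 845 CPM at all 5 stages. At the iPS stage the change against MEF was -8.94 ± 0.57 in SSEA1+ cells (492-fold lower, adjusted p = 3.7e-12) and -2.57 ± 0.42 in SSEA1- cells (5.93-fold lower, adjusted p = 5.4e-05). Fbn1 shares 2442 exon bases, 20.1% of its exon length, with Gm9913 on the opposite strand, which averaged at most 5.36 CPM in any group.

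Fbn2, the fibrillin of embryonic microfibrils, fell against MEF in SSEA1+ cells only from day 12 on. Its levels were 377, 471 and 446 CPM in day 3 SSEA1+ cells, 178, 403 and 403 CPM in day 3 SSEA1- cells and 1360, 269 and 667 CPM in MEF. The MEF libraries overlapped with those of both fractions, and no call against MEF was made at days 3, 6 and 9. Without MEF replicate 2, its lowest MEF library, Fbn2 passed the threshold in day 3 SSEA1- cells (-1.72, adjusted p = 0.029), in day 9 SSEA1+ cells (-1.54, adjusted p = 0.042) and in day 12 SSEA1- cells (-1.80, adjusted p = 0.025). DESeq2 called it in SSEA1- cells at days 3 and 12 with all libraries (adjusted p = 0.039 and 0.04). In SSEA1+ cells it held 233, 523 and 642 CPM at day 6 and 330, 440 and 304 CPM at day 9. It then had 39.8, 32.9 and 118 CPM at day 12, below all MEF libraries (-3.59 ± 0.64, adjusted p = 3.4e-05), and 13.6, 5.63 and 3.88 CPM at the iPS stage (-6.63 ± 0.74, adjusted p = 3.2e-08). In SSEA1- cells it fell only at the iPS stage, with 226, 99.8 and 57.3 CPM (-2.58 ± 0.61, adjusted p = 0.0019). The lowest value was that of the replicate with the highest pluripotency and fibroblast sums.

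Eln, which encodes tropoelastin, had the deepest loss at day 3 and was higher again later. At day 3 it was nearly undetected in SSEA1+ cells, with 0.112, 0.265 and 0.153 CPM from 3, 4 and 3 reads, and it had 0.405, 1.59 and 2.4 CPM in SSEA1- cells from 10, 41 and 95 reads, against 542, 617 and 686 CPM in MEF. Over summed reads the day 3 SSEA1+ level was 3650-fold lower than that of MEF, with an exact 95% interval of 1980 to 7610 that covers counting error only. The fitted changes were -11.81 ± 1.07 in SSEA1+ cells and -8.67 ± 0.88 in SSEA1- cells (adjusted p = 4.5e-09 and 6.5e-08). No other member was below 3 CPM in a day 3 library. In SSEA1- cells Eln then measured 36.9, 102 and 159 CPM at day 6, 104, 241 and 187 CPM at day 9, 68.1, 111 and 441 CPM at day 12 and 142, 86.1 and 146 CPM at the iPS stage. Each of these libraries lay above each day 3 library and below each MEF library. The rise of SSEA1- cells between day 12 and day 3 was 7.10 ± 0.83 (137-fold, adjusted p = 3.5e-06), and Eln was the only one of the 10 genes among the 16.3% of all genes that rose there.

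The shortfall of Eln against MEF in SSEA1- cells was -2.63 ± 0.66 at day 6, -1.79 ± 0.64 at day 9 and -2.30 ± 0.65 at the iPS stage, all called, and -1.57 ± 0.64 at day 12, where the adjusted p lay at the threshold before rounding (0.05) and no call was made, although DESeq2 made one (-1.62, adjusted p = 0.035). Without day 12 SSEA1- replicate 3, which held 441 CPM, the day 12 value was -2.77 (adjusted p = 0.0032). The day 9 call was lost without SSEA1- replicate 1, without SSEA1- replicate 3 or without MEF replicate 3, with adjusted p of 0.057 to 0.11, and with no filter on low counts (-1.74, adjusted p = 0.069). In SSEA1+ cells Eln also rose between day 12 and day 3, by 4.74 ± 0.98 (adjusted p = 0.00041), as did 18.7% of all genes. The day 12 libraries held 2.62, 2.17 and 9 CPM, still 134-fold below MEF. On summed reads, day 6 SSEA1+ cells already stood 8.07-fold above day 3 SSEA1+ cells (76 and 10 reads, exact 95% interval 4.16 to 17.5 for counting error).

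Fbln5, whose product tethers tropoelastin to microfibrils and cells, fell in SSEA1+ cells at every stage and in SSEA1- cells at the iPS stage. It was at 286, 232 and 203 CPM in day 3 SSEA1+ cells, 827, 823 and 757 CPM in day 3 SSEA1- cells and 1070, 1270 and 1330 CPM in MEF, with no overlap among the 3. The change against MEF was -2.35 ± 0.61 in SSEA1+ cells (adjusted p = 0.0026) and -0.61 ± 0.58 in SSEA1- cells (adjusted p = 0.42). SSEA1+ cells had 62.9, 23.3 and 13.8 CPM at day 6, 32.9, 8.76 and 4.74 CPM at day 9, 8.48, 6.42 and 12.1 CPM at day 12 and 5.58, 0.446 and 1.94 CPM at the iPS stage, a 458-fold lower level than in MEF (-8.84 ± 0.83, adjusted p = 1.5e-09). SSEA1- cells passed the threshold at the iPS stage, with 186, 537 and 471 CPM (-1.62 ± 0.59, adjusted p = 0.033). That call ended without MEF replicate 2 or 3 and without iPS SSEA1- replicate 1 or 3, with adjusted p of 0.05 to 0.13, and with no filter on low counts (-1.52, adjusted p = 0.081). With the compared groups only, Fbln5 also passed in day 12 SSEA1- cells (-1.11, adjusted p = 0.011), against -1.15 ± 0.59 (adjusted p = 0.12) with all groups.

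Efemp2, which encodes fibulin-4, a protein that brings Lox and tropoelastin together, fell least of the members that fell at day 3 in both fractions. Its levels were 60.8, 76 and 75.1 CPM in day 3 SSEA1+ cells, 54.6, 111 and 107 CPM in day 3 SSEA1- cells and 468, 354 and 407 CPM in MEF. The fractions overlapped and both lay below MEF, with -2.54 ± 0.34 in SSEA1+ cells and -2.17 ± 0.34 in SSEA1- cells. At the iPS stage SSEA1+ cells had 21.5, 12 and 16.8 CPM (-4.61 ± 0.38, adjusted p = 1.8e-10) and SSEA1- cells had 140, 201 and 325 CPM, which was under the 2-fold threshold (-0.89 ± 0.33, adjusted p = 0.034). Without iPS SSEA1- replicate 3, which held the highest pluripotency and fibroblast sums of its group, the change in SSEA1- cells was -1.25 (adjusted p = 0.0075). Without MEF replicate 2 it was -1.04 (adjusted p = 0.033). Efemp2 shares 173 exon bases, 4.6% of its exon length, with Mus81 on the opposite strand, which averaged 8.87 to 22.2 CPM.

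**Figure D2:**
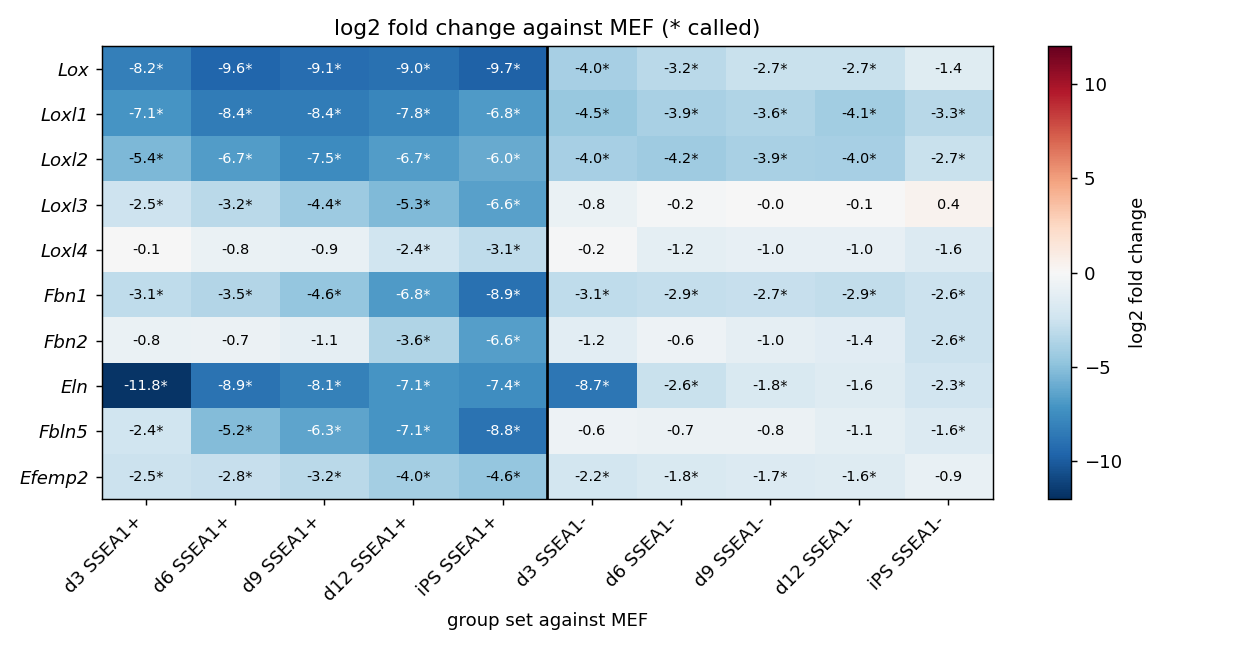
Log2 fold change of each of the 10 genes (vertical) against MEF in each stage and fraction (horizontal), as a colour scale with the value printed in each cell. Eln is lowest at day 3 in both fractions, while Fbn1, Fbn2, Fbln5 and Loxl3 are lowest at the iPS stage in SSEA1+ cells.

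Between the fractions of the same stage, none of the 10 genes was higher in SSEA1+ cells past the threshold. At day 3 5 had fallen in SSEA1+ relative to SSEA1- cells (3.91% of all genes tested fell), at day 6 6 (10.1%), at day 9 8 (13.7%), at day 12 9 (18%) and at the iPS stage 9 (21.3%). The 5 of day 3 were Lox (-4.26 ± 0.96), Eln (-3.15 ± 1.04), Loxl1 (-2.57 ± 0.66), Loxl3 (-1.68 ± 0.46) and Loxl2 (-1.43 ± 0.38). Fbln5 joined them at day 6, with 62.9, 23.3 and 13.8 CPM in SSEA1+ cells and 706, 865 and 683 CPM in SSEA1- cells (-4.49 ± 0.67, adjusted p = 4.8e-05). Fbn1 and Efemp2 followed at day 9, at -1.91 ± 0.41 and -1.53 ± 0.33, and Fbn2 at day 12, at -2.23 ± 0.61. Loxl4 was called at no stage by edgeR and measured -1.40 ± 0.66 at day 12 (adjusted p = 0.081) and -1.44 ± 0.67 at the iPS stage (adjusted p = 0.074), where DESeq2 called it at both (adjusted p = 0.047 and 0.048). No positive value had an unadjusted p under 0.05, and DESeq2 called none higher.

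The count at day 3 changed when single libraries were left out. It was 1 without SSEA1+ replicate 1 or without SSEA1- replicate 2, and 2 without SSEA1+ replicate 3. Lox was called in each of these, with Loxl2 beside it in the last. The values that lost their call stayed between -2.17 and -2.56 for Loxl1, -1.56 and -1.73 for Loxl3 and -1.18 and -1.20 for Loxl2. The Eln difference at day 3 lost its call without any of 5 of the 6 libraries, with adjusted p of 0.078 to 0.16, and with no filter on low counts (-3.23, adjusted p = 0.081). Its summed reads gave a 9.96-fold lower level in SSEA1+ than in SSEA1- cells, with an exact 95% interval of 5.27 to 21.2 for counting error. Fbln5, at -1.74 ± 0.60 (adjusted p = 0.056), also passed at day 3 with the replicate number as a block (-1.76, adjusted p = 0.039), with DESeq2 (adjusted p = 0.019), with RLE scaling (adjusted p = 0.046) and with the compared groups only (adjusted p = 0.0049). Over the same stages the sum of the 12 fibroblast markers was 1000 to 1740 CPM in SSEA1+ cells and 2780 to 6380 CPM in SSEA1- cells at day 3, and 43.5 to 236 CPM in SSEA1+ cells and 8060 to 14400 CPM in SSEA1- cells at the iPS stage. The sum of 8 smooth muscle or myofibroblast markers, none of them at 0, was 1800 to 2100 CPM in SSEA1+ cells, 3000 to 3890 CPM in SSEA1- cells at day 3 and 10200 to 19000 CPM in MEF. In iPS cells it was 122 to 258 CPM in SSEA1+ cells and 2860 to 5830 CPM in SSEA1- cells. The part of either sum in the differences between the fractions was not tested.

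**Figure D3:**
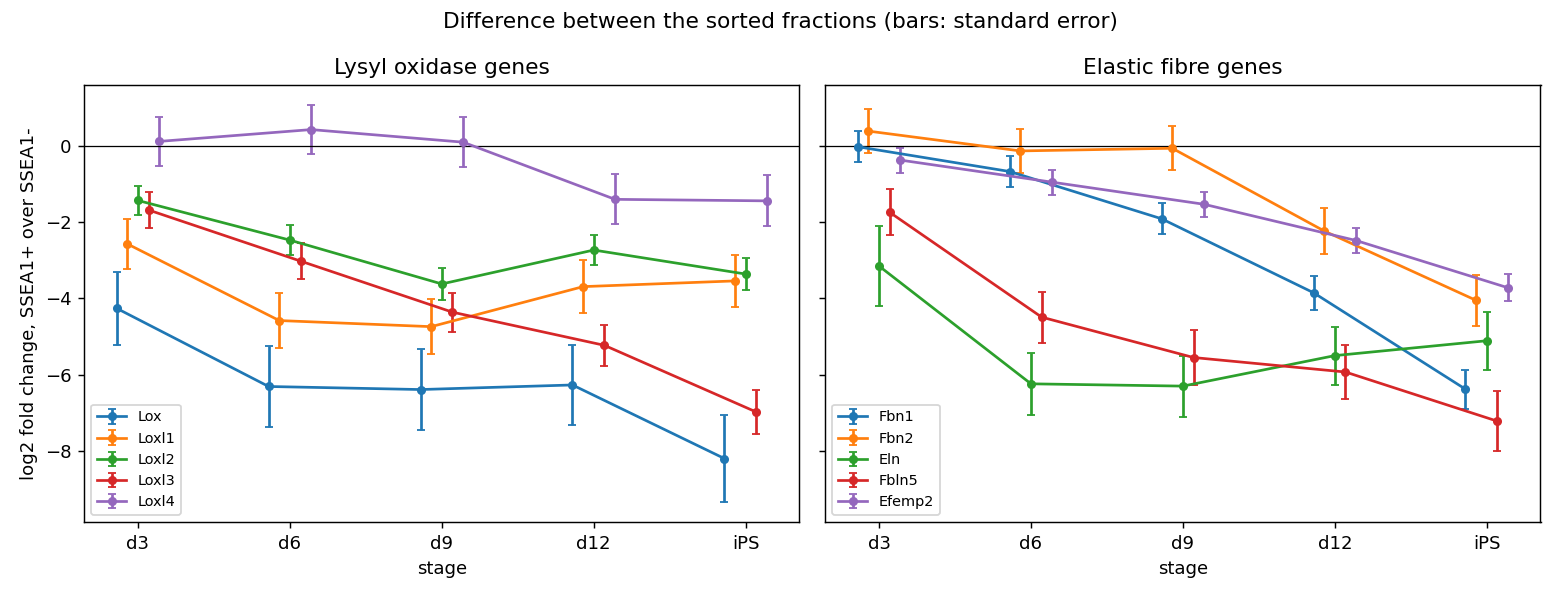
Log2 fold change of SSEA1+ over SSEA1- cells (vertical) by stage (horizontal) for the 5 lysyl oxidase genes (left) and the 5 elastic fibre genes (right), with bars of 1 standard error. Loxl3, Fbn1, Fbln5 and Efemp2 move further below 0 at each stage, whereas Loxl4 and Fbn2 lie within 1 standard error of 0 at days 3 and 9.

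The widening with time was tested as the SSEA1+ over SSEA1- difference at day 12 minus that at day 3. It was called for 5 of the 10 genes, all towards lower values in SSEA1+ cells (7.93% of all genes tested fell in this sense). Fbln5 was at -4.19 ± 0.86 (adjusted p = 0.0022), Fbn1 at -3.83 ± 0.59 (adjusted p = 0.00025), Loxl3 at -3.55 ± 0.65 (adjusted p = 0.00095), Fbn2 at -2.63 ± 0.83 (adjusted p = 0.03) and Efemp2 at -2.11 ± 0.47 (adjusted p = 0.0036). Lox, at -2.01 ± 1.21 (adjusted p = 0.26), and Eln, at -2.35 ± 1.51 (adjusted p = 0.3), did not pass. Of these 5 genes, Loxl3 was also among the 5 that were lower in SSEA1+ cells at day 3. The Fbn2 call ended without any of 6 libraries, with adjusted p of 0.053 to 0.089, and with no filter on low counts (-2.67, adjusted p = 0.06). The same test between the iPS stage and day 12 called 1 gene, Fbn1 at -2.52 ± 0.58 (adjusted p = 0.022), where 1.44% of all genes fell, and that call ended without any of 6 libraries, with adjusted p of 0.061 to 0.082.

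Within the SSEA1+ fraction, 7 of the 10 genes fell between day 3 and day 12 (10.5% of all genes tested fell). They were Fbln5 (-4.74 ± 0.68), Fbn1 (-3.69 ± 0.45), Loxl3 (-2.83 ± 0.48), Fbn2 (-2.76 ± 0.62), Loxl4 (-2.37 ± 0.68), Efemp2 (-1.52 ± 0.33) and Loxl2 (-1.30 ± 0.38). The Loxl2 groups overlapped, and its call ended with the compared groups only (-1.22, adjusted p = 0.064). Lox, at 7.64, 11 and 14.7 CPM at day 12 and 33.9, 14.1 and 7.32 CPM at day 3, and Loxl1 had -0.74 ± 0.86 and -0.72 ± 0.65 (adjusted p = 0.53 and 0.41). The Loxl4 call ended without day 3 SSEA1+ replicate 1, which held 113 CPM (-1.76, adjusted p = 0.066). At the iPS stage Fbn1 (-2.17 ± 0.43, adjusted p = 0.0011) and Fbn2 (-3.04 ± 0.64, adjusted p = 0.0021) were lower than at day 12 in SSEA1+ cells, where 5.75% of all genes fell. Without iPS SSEA1+ replicate 1, the highest iPS SSEA1+ library for Lox, Loxl3, Fbn1, Fbn2, Eln and Fbln5, 4 genes had fallen, with Loxl3 at -2.36 and Fbln5 at -2.91 (adjusted p = 0.0029 and 0.01). Within the SSEA1- fraction none of the 10 genes fell between day 3 and day 12 with edgeR or DESeq2, where 6.12% of all genes fell with edgeR. No negative value of the 10 genes had an unadjusted p under 0.05 there.

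Per base of exon the family's make-up differed between the fractions. Levels were divided by the length of the union of a gene's exons, so that genes can be set beside each other, and are given in CPM per kb. The summed lysyl oxidase level was 50.4 ± 3.5 CPM per kb in day 3 SSEA1+ cells, 186 ± 34 in day 3 SSEA1- cells and 2150 ± 410 in MEF (SD, n = 3 each). At the iPS stage it was 15.6 ± 4.7 in SSEA1+ cells and 659 ± 270 in SSEA1- cells. In MEF Lox made up 54.3 ± 2.5% of that sum, Loxl2 25.4 ± 5.1%, Loxl1 15.7 ± 2.3%, Loxl3 3.8 ± 0.7% and Loxl4 0.8 ± 0.1%. In day 3 SSEA1+ cells Loxl4 made up 31.9 ± 14.9%, Loxl3 29.2 ± 6.8%, Loxl2 26.6 ± 11.1% and Lox 7.4 ± 5.0%. Loxl4 reached 48.4 ± 2.9% in day 9 SSEA1+ cells, where its level was 38.3 ± 16 CPM against 72.1 ± 15 CPM in MEF, so its share was high in a sum of 19.0 ± 8.6 CPM per kb. In iPS SSEA1+ cells Loxl2 held the largest share, 55.2 ± 16.2%, and led in each library. In day 3 SSEA1+ cells Loxl4 led in replicate 1 alone, with 49.1% against 22.5 and 24.1% in replicates 2 and 3. In day 12 SSEA1+ cells Loxl2 led in replicate 1, with 58.1%, while Loxl2 and Loxl4 had 25.6% each in replicate 2, and 26.4% and 28.9% in replicate 3. In SSEA1- cells Lox kept the largest mean share at every stage, 39.3 ± 10.1% at day 3 and 61.5 ± 11.1% at the iPS stage, and Loxl3 had 18.5 ± 8.1 to 27.4 ± 9.9%. Loxl3 nonetheless led Lox in day 3 replicate 3 (32% against 29.8%), day 6 replicate 1 (38.9% against 36.7%) and day 12 replicate 1 (41% against 38.5%). These shares carry no test, and the exon lengths come from an annotation of another build than the files.

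**Figure D4:**
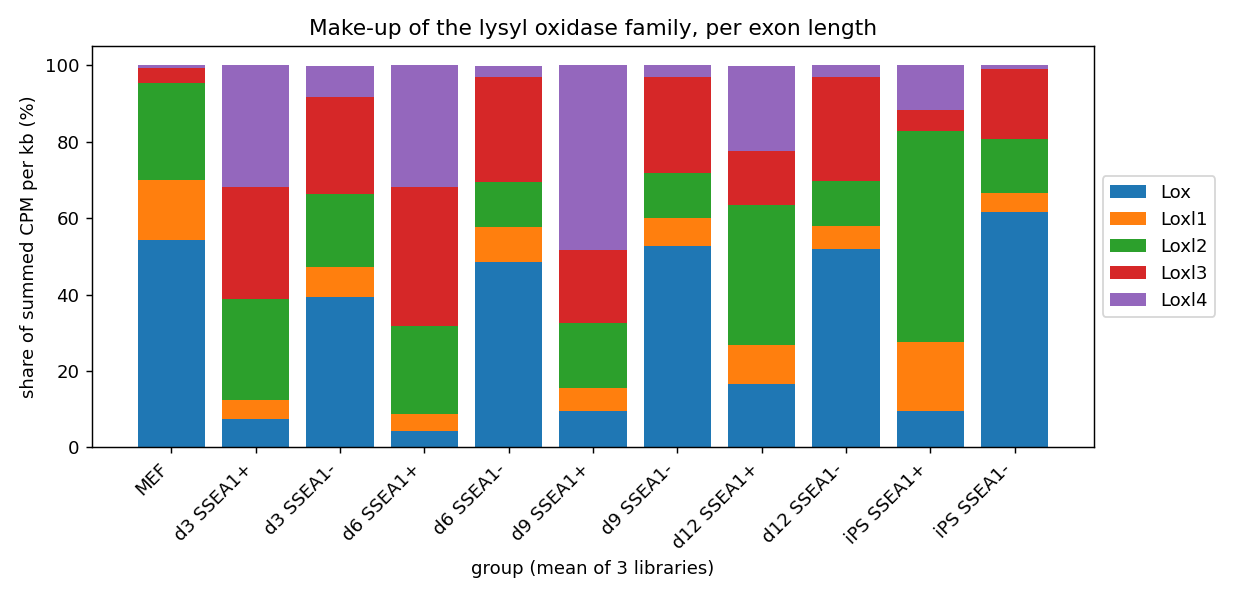
Share of each of the 5 lysyl oxidase genes in their summed level per kb of exon (vertical, percent), as the mean of 3 libraries in each of 11 groups (horizontal). Lox has the largest mean share in MEF and in all SSEA1- groups, Loxl4 in day 9 SSEA1+ cells and Loxl2 in iPS SSEA1+ cells. At days 3, 6 and 12 the leading gene differed between libraries in both fractions.

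The elastic fibre genes summed to 125 ± 5.5 CPM per kb in day 3 SSEA1+ cells, 205 ± 20 in day 3 SSEA1- cells and 750 ± 27 in MEF, and to 6.51 ± 2.6 in iPS SSEA1+ cells and 197 ± 60 in iPS SSEA1- cells (SD, n = 3 each). Fbn1 gave 44.2 ± 4.9% of this sum in MEF and Fbln5 23.7 ± 3.5%. In day 3 SSEA1- cells Fbln5 gave 56.9 ± 5.3% and Eln 0.1 ± 0.1%. The largest part in SSEA1+ cells was Fbn2 at day 9, with 49.8 ± 4.2%, and Efemp2 at the iPS stage, with 70 ± 9.3%. The leading gene of the sum differed between MEF, day 9 SSEA1+ cells and iPS SSEA1+ cells.

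The order of levels over the 11 groups differed between the members. For Lox, Loxl1 and Loxl2 the MEF libraries lay above all others, all SSEA1- groups came next and all SSEA1+ groups last, and the lowest SSEA1- group did not overlap with the highest SSEA1+ group. By group means Loxl3 had that order too, except that iPS SSEA1- cells stood above MEF (497 ± 84 and 370 ± 29 CPM, SD, n = 3 each). Its MEF libraries overlapped with the SSEA1- libraries of days 6, 9 and 12. For Fbn1 and Efemp2 the MEF libraries were again highest, but the day 3 fractions were neighbours that overlapped. For Loxl4 no pair of neighbours in the order was free of overlap, and for Fbn2 the only such pair was day 12 and iPS SSEA1+ cells. Eln put day 3 SSEA1- cells (1.46 ± 1.0 CPM) below SSEA1+ cells of days 9, 12 and the iPS stage, without a gap between neighbours in that stretch of the order. For Fbln5 MEF came first and all SSEA1- groups next, each overlapping with its neighbour.

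Over the 11 group means of log2(CPM + 1), the pairs of members most alike were Loxl1 and Loxl2 (Pearson's r = 0.98) and Loxl3 and Fbln5 (0.96), and the least alike were Loxl4 and Eln (0.13) and Fbn2 and Eln (0.24). The points share their libraries, so these values are given as a description with no test. Among 11278 genes that averaged 10 CPM or more in a group, those nearest to Lox were Col8a1 and Svep1 (0.993 each), to Fbn1 Lpp (0.996), to Loxl3 Itfg1 (0.995), to Loxl2 Sec24d (0.995), to Eln Htra3 (0.992) and Aspn (0.987), to Fbln5 Mamld1 (0.993), to Efemp2 Ugcg (0.988), to Loxl1 Galnt17 (0.987), to Fbn2 Zfp618 (0.987) and to Loxl4 Cdipt (0.976).

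The other genes of the pathway were read in 4 lists. Of 25 further elastic fibre and microfibril genes, 16 fell and 1 rose in day 3 SSEA1+ cells against MEF (median log2 change -3.31). Of all genes tested, 16.7% fell and 15.6% rose there. In iPS SSEA1+ cells 17 fell and 2 rose (median log2 change -3.64), where 22.5% of all genes fell and 27.9% rose. Bgn, a small proteoglycan that binds tropoelastin, was among those that fell at day 3 (-8.27 ± 0.87), as was Fbln2, a fibulin of microfibrils (-5.45 ± 0.60). Fn1, the fibronectin on which microfibrils assemble, fell too (-4.26 ± 0.40), and so did Ltbp1, a latent TGF-beta binding protein (-3.31 ± 0.36). Mmrn2, a multimerin of endothelial matrix, rose in iPS SSEA1+ cells to 81.7 ± 36 CPM, against 0.538 ± 0.26 CPM in MEF (7.33 ± 0.75, adjusted p = 6.7e-09). The sum of 7 endothelial markers was 220 to 295 CPM there and 5.11 to 10.8 CPM in MEF. It was also 203 to 239 CPM in day 3 SSEA1+ cells and 163 to 273 CPM in day 3 SSEA1- cells. A sum above MEF was thus not particular to iPS SSEA1+ cells, and its part in the Mmrn2 level was not tested.

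Of 24 tested genes of collagen modification and folding, 18 fell and 2 rose in day 3 SSEA1+ cells against MEF. P4ha1 and P4ha2, which encode the catalytic chains of prolyl 4-hydroxylase, were among them (-4.53 ± 0.24 and -5.41 ± 0.34), with Plod1, a lysyl hydroxylase (-3.29 ± 0.29). In iPS SSEA1+ cells 21 fell and none rose, of which Fkbp10, a collagen chaperone, fell by 5.65 ± 0.36. The list of copper supply genes takes in copper handling in general, not only genes that serve the lysyl oxidases. Copper loading of these enzymes was not measured. Of 9 tested, 1 fell and 1 rose at day 3, where 16.7% of all genes fell and 15.6% rose. None of the 9 fell and 2 rose at the iPS stage (3 had an unadjusted p under 0.05), where 22.5% of all genes fell and 27.9% rose. The 2 that rose were the metallothionein genes Mt2 (3.69 ± 0.79, adjusted p = 0.00024) and Mt1 (2.27 ± 0.66, adjusted p = 0.0042). Atp7a, the copper pump that loads secreted copper enzymes, averaged 20 ± 1.5 CPM in day 9 SSEA1+ cells and 48.9 ± 12 CPM in MEF (-1.30 ± 0.51, adjusted p = 0.035). Of 12 genes for elastin receptors and elastases, 8 fell and 1 rose at day 3 and 9 fell at the iPS stage, among them Mmp14 (-6.19 ± 0.32), a membrane metalloproteinase, and Ctsk (-8.04 ± 0.66), the elastolytic cathepsin K.

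In iPS SSEA1- cells 7.7% of all genes tested fell against MEF and 19.1% rose. Of the elastic fibre list 6 fell and 3 rose, of the collagen list 12 fell and 1 rose, of the copper list none was called (3 had an unadjusted p under 0.05) and of the receptor list 2 fell. Efemp1, a fibulin paralog of Efemp2, rose there to 233 ± 98 CPM against 33 ± 17 CPM in MEF (2.81 ± 0.66, adjusted p = 0.0017), while Fbln2 fell by 2.05 ± 0.51. Between day 12 and day 3 of SSEA1- cells, where Eln rose, 10 of the 25 elastic fibre genes rose and none fell (14 had an unadjusted p under 0.05). Of all genes tested, 16.3% rose and 6.12% fell there. Among the 10 that rose were Fn1 (1.46 ± 0.35), Ltbp3 (1.67 ± 0.44), another latent TGF-beta binding protein, and Adamts10 (1.94 ± 0.51), a metalloproteinase that binds fibrillin. Between SSEA1+ and SSEA1- cells the list had 3 lower and none higher at day 3 (3.91% of all genes were lower and 2.76% higher, and 8 of the list had an unadjusted p under 0.05), and 17 lower and 2 higher at the iPS stage (21.3% and 16%). The lower ones at the iPS stage included Ltbp1 (-3.36 ± 0.36) and Bgn (-7.28 ± 0.83).

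**Figure D5:**
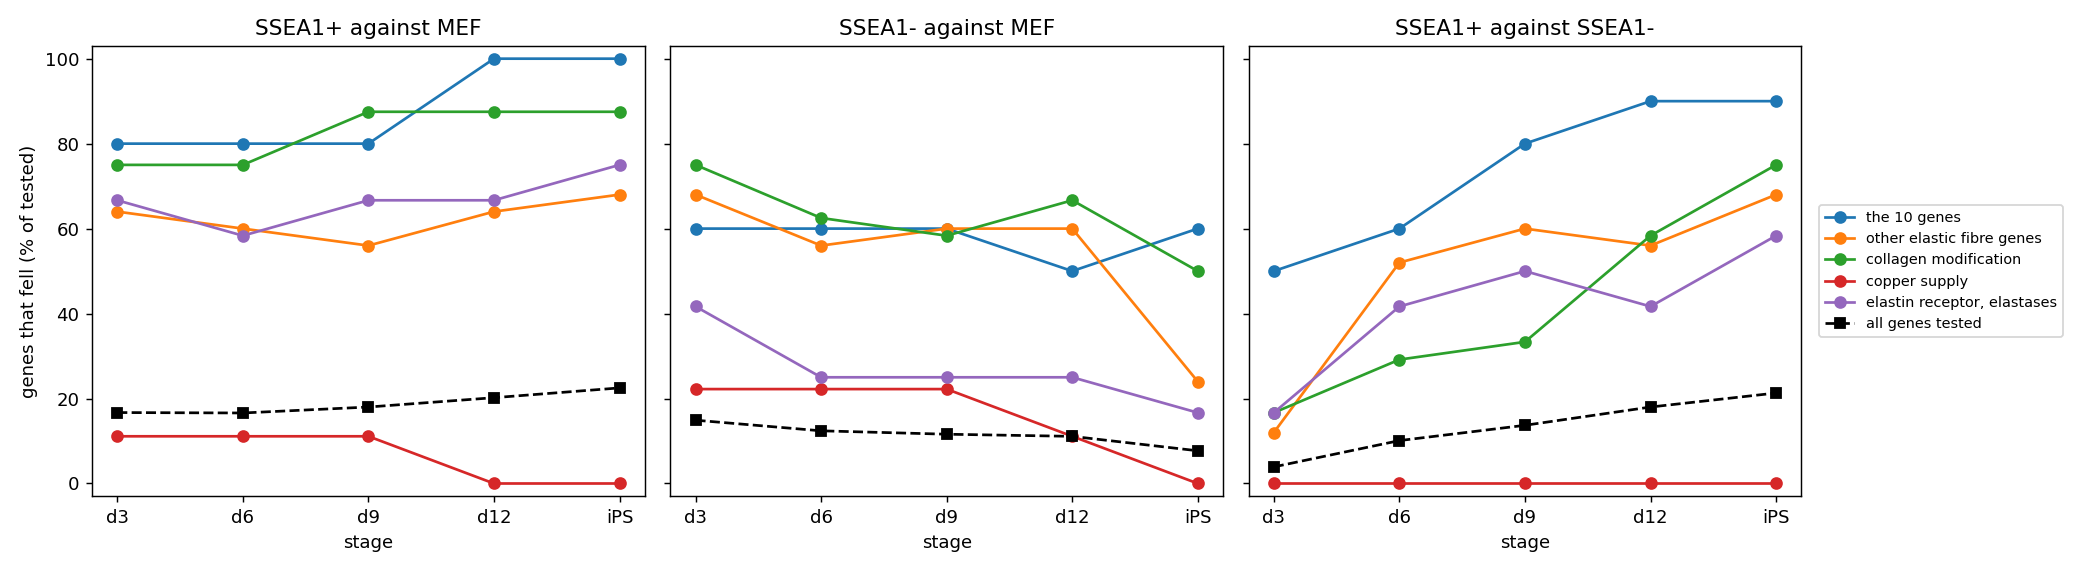
Share of tested genes that fell (vertical, percent) by stage (horizontal) for the 10 genes, 4 pathway lists and all 17326 genes, in SSEA1+ cells against MEF (left), SSEA1- cells against MEF (middle) and SSEA1+ against SSEA1- cells (right). The line of the copper supply genes stays at 0 between the fractions, while that of the 10 genes reaches 9 of 10.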

How the data were processed

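RNA of 33 sorted or cultured mouse cell samples was sequenced from poly-A selected libraries, per the labels' protocols. The deposited values are raw read counts per Ensembl gene. Per the submitters' processing notes HTSeq 0.6.0, STAR 2.3.0, Picard 1.100 and the build mm9 were used, with no role stated. Rows of unassigned reads were left out of library sizes and tests. Counts were scaled by TMM, filtered with filterByExpr and tested with edgeR 4.0.16 (quasi-likelihood, R 4.3.3) in 1 model of all 11 groups with 22 residual degrees of freedom. Alternatives were DESeq2 1.42.0, RLE scaling, no filter, the compared groups only, a replicate block and each library left out. Exon lengths and overlaps come from GENCODE M21 (GRCm38), another build than mm9, and promoters from RefSeq. The members and all lists were chosen with earlier results of these data known. All members were named, with at most 4 called genes per pathway list and comparison (smallest adjusted p) and the 2 nearest patterns per member at most. Same-numbered libraries deviated together (every r over 0.1) between the fractions at days 3 to 12 (r of 0.12 to 0.64). They also did so in SSEA1+ cells and MEF at days 3, 6 and 12. In SSEA1- cells they did so between day 3 and day 12 and between day 12 and the iPS stage. In these comparisons the number was taken to pair the samples. The main fit held no replicate term, so its p-values leave the pairing out.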

Additional observations from a re-analysis of the deposited data

Results flagged for a closer look

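The difference between SSEA1+ and SSEA1- cells was itself larger at day 12 than at day 3 for 5 of the 10 genes, by edgeR's test of that change. Of all genes tested, 7.93% fell in this sense. The value was -4.19 for Fbln5 (adjusted p = 0.0022), -3.83 for Fbn1 (adjusted p = 0.00025), -3.55 for Loxl3 (adjusted p = 0.00095), -2.63 for Fbn2 (adjusted p = 0.03) and -2.11 for Efemp2 (adjusted p = 0.0036). Between the iPS stage and day 12 the change was -2.52 for Fbn1 (adjusted p = 0.022), where 1.44% of all genes fell. In all of these the SSEA1+ side was the lower one at the later stage. The Fbn2 call was lost with each of several single libraries left out (adjusted p of 0.053 to 0.089). So was the Fbn1 call between the iPS stage and day 12 (adjusted p of 0.061 to 0.082). With the compared groups only, that Fbn1 change had an adjusted p of 0.23.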

How the results depend on the processing

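No called value of the 10 genes changed sign under an alternative run, but 45 uncalled values did. They belong to 19 gene-and-comparison results of at most 0.74 in size, and their adjusted p under the alternative was 0.33 or more. With single libraries left out, the log2 changes against MEF ran between -0.66 and 0.14 for Loxl4 in day 3 SSEA1+ cells, -0.69 and 0.06 for Loxl4 in day 3 SSEA1- cells, and -1.13 and 0.01 for Fbn2 in day 6 SSEA1- cells. For Loxl3 in SSEA1- cells they ran between -0.52 and 0.04 at day 6, -0.25 and 0.22 at day 9, and -0.17 and 0.03 at day 12, and with no filter on low counts they were 0.03 at day 9 and 0.05 at day 12. Between the fractions Loxl4 ran between -0.44 and 0.57 at day 3, -0.94 and 1.45 at day 6, and -0.29 and 0.58 at day 9. Fbn1 ran between -0.27 and 0.17 at day 3, and Fbn2 between -0.46 and 0.42 at day 6 and -0.27 and 0.16 at day 9 (0.01 with the replicate block). Between day 12 and day 3 the range was -1.12 to 0.12 for Lox in SSEA1+ cells and -0.52 to 0.14 for Fbn2 in SSEA1- cells. Between the iPS stage and day 12 it was -0.78 to 0.58 for Eln in SSEA1+ cells and -1.16 to 0.47 in SSEA1- cells. For the change of the sort difference between the iPS stage and day 12 it was -0.27 to 0.80 for Loxl1, -0.82 to 1.31 for Eln and -0.67 to 0.48 for Loxl4, which was at 0.01 with DESeq2 and with RLE scaling. With the iPS stage set against day 12 in SSEA1+ cells, 2 members were called, against 4 with the replicate block, 1 with the compared groups only and 2 to 4 with single libraries left out. In SSEA1- cells the count was 1 there, 0 with the compared groups only (2 at an unadjusted p under 0.05) and 0 to 1 with libraries left out. For the change of the sort difference between the iPS stage and day 12 it was 1, 0 with the compared groups only (3 at an unadjusted p under 0.05; DESeq2 called 1) and 0 to 2 with libraries left out. Between the fractions at day 3 it was 5, and 1 to 5 with libraries left out. The cause of these shifts was not tested, beyond the fewer samples in the smaller fits. Over all genes, 4636 calls in iPS SSEA1- cells against MEF became 2745 with the compared groups only, 1250 between the iPS stage and day 12 of SSEA1- cells became 196, and 321 for the iPS and day 12 sort difference became 641 with DESeq2, 497 with the replicate block and 0 with the compared groups only (1882 at an unadjusted p under 0.05). With single libraries left out the counts over all genes were 531 to 1117 against 1155 for the fractions at day 3, 871 to 1799 against 1645 for the iPS stage and day 12 in SSEA1+ cells, 478 to 1362 against 1250 in SSEA1- cells, 1536 to 2958 against 2450 for the day 12 and day 3 sort difference and 135 to 645 against 321 for the iPS and day 12 one. Where numbers paired the samples, the replicate block changed 1 call, that of Fbln5 between the fractions at day 3. Elsewhere samples share only a number, and the block added calls of Loxl4 (day 6 and iPS SSEA1- cells against MEF, and between the fractions at the iPS stage), of Eln (day 12 SSEA1- cells against MEF) and of Loxl3 and Fbln5 (iPS against day 12 in SSEA1+ cells). Depth limits Eln most, since day 3 SSEA1+ libraries held 3, 4 and 3 of its reads.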
